A study of Mus musculus with 20 samples.

Results

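The interferon response genes described here are 36 genes chosen by symbol, of which 34 had at least 1 probe set annotated to a single gene on the arrays, out of 18193 genes named in all. They were measured in liver of male BALB/c mice on Affymetrix mouse arrays, 1 array per mouse and 5 mice per group. STZ mice received 1 intraperitoneal injection of 185 mg/kg streptozotocin, a toxin of insulin-producing beta cells, and ate plain AIN93G diet for 14 days. Mice given STZ and 0.1% phloridzin, and mice given STZ and 0.5% phloridzin, received the same injection and ate AIN93G holding 0.1% or 0.5% phloridzin, a plant glucoside that blocks glucose uptake by sodium-glucose cotransporters, for the same 14 days. Untreated mice ate plain AIN93G and received no injection, so that the STZ groups differ from them by the handling and vehicle of an injection as well as by STZ. All mice were 6 weeks old on arrival and were housed 3 to a cage, and the diabetic mice had non-fasting blood glucose of 330 to 590 mg/dL before the diets began. The study held 6 mice per group, and the arrays of 5 of them were analysed.

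Interferons are secreted proteins that switch on antiviral and antigen-presenting genes through cell surface receptors, JAK kinases and STAT factors. Type I interferons act mainly through a complex that holds STAT2 and IRF9 and binds the interferon-stimulated response element (ISRE), and interferon gamma mainly through factors that bind the gamma-activated site (GAS), with IRF1 as a second wave. Many of the genes answer to both. The 34 measured members comprised 21 genes taken as type I genes and 13 taken as gamma-type genes, a division by textbook knowledge and not by these arrays. Isg15, whose probe set was shared with a second gene, and Ifi44 are not analysed here.

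The deposited values were linear signals with a trimmed mean of 100 on every array. A signal of 17.1, the highest of the 20 array medians, was taken as the limit of background. Mx1 was the only member with a mean over the 20 arrays at or under this limit, at 16.8, and all 34 members passed the filter on low signal. Differences are given in log2 of the signal plus 16, which understates the change of dim genes, and calls were made where limma's p, adjusted over 12947 genes, was below 0.05. Folds are these differences taken off the log2 scale, so they are folds of signal plus 16 and not ratios of the mean signals printed beside them. Hepatocyte markers were bright in all groups, with summed signals of 5 genes of 46836 to 136174, the highest in replicate 4 of the 0.1% phloridzin group. The spike-in bioD-3 had a highest value of 14070 in the 0.1% group, against a median of 4373. It ran over 3097 to 3795 in STZ mice, 3200 to 3672 with 0.5% phloridzin and 3997 to 4794 in untreated mice. Every untreated array thus lay above every STZ and 0.5% array, an offset that cannot be told apart from the group. Counts over all genes also depended on the scaling. In STZ against untreated, 893 genes were called higher and 892 lower, and 1138 and 509 with each array centred on its median. Leaving out 0.1% replicate 4 changed no count of called members against untreated liver with 0.1% phloridzin.

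Promoters were read for the members because type I and gamma signals reach DNA through the ISRE and the GAS. RefSeq windows (GRCm38.p6, C57BL/6J sequence, while the mice were BALB/c) of 250 bases before to 50 bases after each start were read for 26 of the 34 members by symbol. The letters GAAA, any 2 bases (NN) and GAAA, for the ISRE, and TTCNNNGAA, for the GAS, were searched on both strands. An ISRE match was found in 13 of 26 members (50%), against 3.99% of 27025 genes, in 8 of 15 type I genes (53.3%) and in 5 of 11 gamma-type genes (45.5%). A GAS match was found in 7 of 26 members (26.9%), against 9.55% of all genes, in 4 of 15 type I genes (26.7%) and in 3 of 11 gamma-type genes (27.3%). A match is a description of the letters and not a site of binding. The windows of 5 members are shown because they carry the matches of called genes (Gbp2, Gbp3, Oas1a), of a type I gene without a call (Ifit1) and of a gamma-type gene with a GAS alone (Psmb8). Of the other called genes, Usp18 and Zbp1 had no window, and that of Tapbp held neither match. They are Gbp2 at chr3:142620413-142620712 on the plus strand, Gbp3 at chr3:142559794-142560093 on the plus strand, Oas1a at chr5:120907476-120907775 on the minus strand, Ifit1 at chr19:34640639-34640938 on the plus strand and Psmb8 at chr17:34197945-34198244 on the plus strand. Capitals mark the matches as they lie on the printed strand, 5′ to 3′, and overlapping matches are merged, as for the pairs of ISRE matches in Gbp3 and Oas1a. The 9-letter match in Oas1a and the match in Psmb8 are GAS letters, and the other capitals are ISRE letters.
Gbp2: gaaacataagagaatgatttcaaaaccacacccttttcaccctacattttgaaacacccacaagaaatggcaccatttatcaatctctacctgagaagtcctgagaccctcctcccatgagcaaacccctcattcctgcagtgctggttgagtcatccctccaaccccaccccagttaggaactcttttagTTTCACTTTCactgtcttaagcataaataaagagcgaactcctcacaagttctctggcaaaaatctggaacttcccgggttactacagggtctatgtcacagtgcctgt
Gbp3: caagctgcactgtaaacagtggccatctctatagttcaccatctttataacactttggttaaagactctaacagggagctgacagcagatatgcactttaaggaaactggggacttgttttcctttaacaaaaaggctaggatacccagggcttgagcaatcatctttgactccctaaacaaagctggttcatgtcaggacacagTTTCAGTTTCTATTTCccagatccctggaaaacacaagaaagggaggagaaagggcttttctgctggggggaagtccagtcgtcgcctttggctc
Oas1a: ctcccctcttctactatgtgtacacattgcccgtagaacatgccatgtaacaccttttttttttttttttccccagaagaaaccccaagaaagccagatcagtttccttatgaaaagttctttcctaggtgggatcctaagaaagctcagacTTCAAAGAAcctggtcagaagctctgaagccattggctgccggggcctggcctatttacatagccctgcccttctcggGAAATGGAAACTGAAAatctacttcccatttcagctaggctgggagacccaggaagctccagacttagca
Ifit1: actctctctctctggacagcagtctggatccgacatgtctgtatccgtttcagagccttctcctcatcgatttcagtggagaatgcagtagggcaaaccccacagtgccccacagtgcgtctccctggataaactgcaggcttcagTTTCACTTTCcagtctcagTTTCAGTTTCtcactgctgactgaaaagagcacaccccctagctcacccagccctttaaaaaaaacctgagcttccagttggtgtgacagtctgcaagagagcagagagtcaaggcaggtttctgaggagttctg
Psmb8: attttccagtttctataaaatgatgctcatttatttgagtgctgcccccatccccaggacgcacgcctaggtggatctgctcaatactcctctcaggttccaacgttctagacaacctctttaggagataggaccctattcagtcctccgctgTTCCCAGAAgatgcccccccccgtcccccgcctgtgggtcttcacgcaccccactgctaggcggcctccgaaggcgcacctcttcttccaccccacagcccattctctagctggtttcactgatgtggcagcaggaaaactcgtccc

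Diabetic liver differed from untreated liver at few of the interferon genes. In STZ liver, 4 of 34 members were called higher than in untreated liver and 0 lower: Usp18, Gbp2, Gbp3 and Zbp1. This is 11.8% of the members, against 13.8% of all genes called in either direction, 6.9% called higher and 6.89% called lower, so that the share of members called lay near that of all genes. The median log2 difference of the members was 0.10, against −0.05 for all genes tested. Of the type I genes 2 of 21 were called, with a median of 0.09, and of the gamma-type genes 2 of 13, with a median of 0.19, and the difference between the classes was not tested. Without STZ replicate 1 the type I median was −0.04 and the gamma-type median 0.05, and over all left-out arrays they reached 0.15 (without STZ replicate 5) and 0.26 (without STZ replicate 2). At an unadjusted p under 0.05 there were 7 members, against 28.4% of all genes. All 5 STZ mice were above all 5 untreated mice for 3 members, against 6.12% of all genes. A liver array measures RNA of all its cells together, and a change in the number of cells of a type cannot be told apart from a change in RNA per cell.

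Usp18, the protease that removes ISG15 from proteins and restrains type I interferon receptor signalling, had the smallest p of the members. Usp18 had signals of 425, 294, 245, 408 and 225 in STZ mice, 364, 374, 199.83, 264 and 414 with 0.1% phloridzin, 397, 359, 322, 353 and 430.1 with 0.5% phloridzin, and 113, 137, 115, 90.5 and 100.4 in untreated mice. None of the 15 mice given STZ overlapped with untreated mice. Usp18 averaged 319 ± 92.4 in STZ, 323 ± 88.4 with 0.1% and 372 ± 41.9 with 0.5% phloridzin, against 111 ± 17.6 in untreated mice (SD, n = 5 each). Against untreated liver its log2 differences were 1.37 ± 0.19, 1.38 ± 0.19 and 1.61 ± 0.19 (SE) or 2.58-fold, 2.61-fold and 3.06-fold. The adjusted p were 6.92e-05, 6.19e-05 and 1.08e-05 in the same order.

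The interferon-inducible GTPases Gbp2 and Gbp3, guanylate-binding proteins that attack vacuoles of intracellular pathogens, were the gamma-type genes called in all 3 comparisons with untreated liver. Gbp2 had signals of 63.03, 69.2, 32.2, 73.1 and 48.6 in STZ mice, 45.6, 50.02, 33.8, 40.04 and 30.5 with 0.1% phloridzin, 46.6, 51.6, 40.5, 50.8 and 84.2 with 0.5% phloridzin, and 12.7, 16.98, 26.7, 15.4 and 11.2 in untreated mice. No array of an STZ group overlapped with the untreated arrays, of which only replicate 3 was above the background limit. Gbp2 averaged 57.2 ± 16.8 in STZ, 39.98 ± 8.07 with 0.1% and 54.7 ± 17.04 with 0.5% phloridzin, against 16.6 ± 6.09 in untreated mice (SD, n = 5 each). Against untreated liver its log2 differences were 1.15 ± 0.17, 0.79 ± 0.17 and 1.11 ± 0.17 (SE), and no fold is given because the untreated mean was not above background. The adjusted p were 0.000206, 0.00447 and 0.00038 in the same order. The Gbp2 and Gbp3 windows printed hold ISRE letters and no GAS letters. A second probe set of Gbp2 gave log2 differences of 1.23, 1.01 and 1.11 in the STZ, 0.1% and 0.5% groups.

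Gbp3 had signals of 117, 144, 80.7, 159 and 60.02 in STZ mice, 128, 127, 56.3, 83.7 and 115 with 0.1% phloridzin, 115, 165, 99.6, 119 and 117 with 0.5% phloridzin, and 35.5, 36.9, 50.2, 30.1 and 47.9 in untreated mice. Every STZ array lay above every untreated array in each of the 3 comparisons, which share the untreated mice. Gbp3 averaged 112 ± 41.7 in STZ, 102 ± 31.1 with 0.1% and 123 ± 24.5 with 0.5% phloridzin, against 40.1 ± 8.57 in untreated mice (SD, n = 5 each). Against untreated liver its log2 differences were 1.14 ± 0.21, 1.04 ± 0.21 and 1.31 ± 0.21 (SE) or 2.2-fold, 2.05-fold and 2.47-fold. The adjusted p were 0.00162, 0.00279 and 0.000565 in the same order.

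Zbp1, a sensor of Z-form nucleic acids that triggers cell death, was called although STZ replicate 3 fell inside the untreated range. Zbp1 had signals of 115, 75.7, 26.4, 98.6 and 65.7 in STZ mice, 88.9, 99.6, 44.7, 77.4 and 44.00 with 0.1% phloridzin, 46.03, 82.4, 62.2, 70.5 and 32.03 with 0.5% phloridzin, and 22.9, 22.04, 17.6, 9.94 and 27.4 in untreated mice. The other 4 STZ mice were higher than all untreated mice, and neither phloridzin group overlapped with them. Zbp1 averaged 76.2 ± 33.8 in STZ, 70.9 ± 25.5 with 0.1% and 58.6 ± 19.9 with 0.5% phloridzin, against 19.97 ± 6.58 in untreated mice (SD, n = 5 each). Against untreated liver its log2 differences were 1.28 ± 0.26, 1.24 ± 0.26 and 1.03 ± 0.26 (SE) or 2.43-fold, 2.36-fold and 2.04-fold. The adjusted p were 0.0031, 0.00344 and 0.014 in the same order. A dimmer probe set of Zbp1 gave 0.78, 0.72 and 0.56 in the same order of groups.

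**Figure D1:**
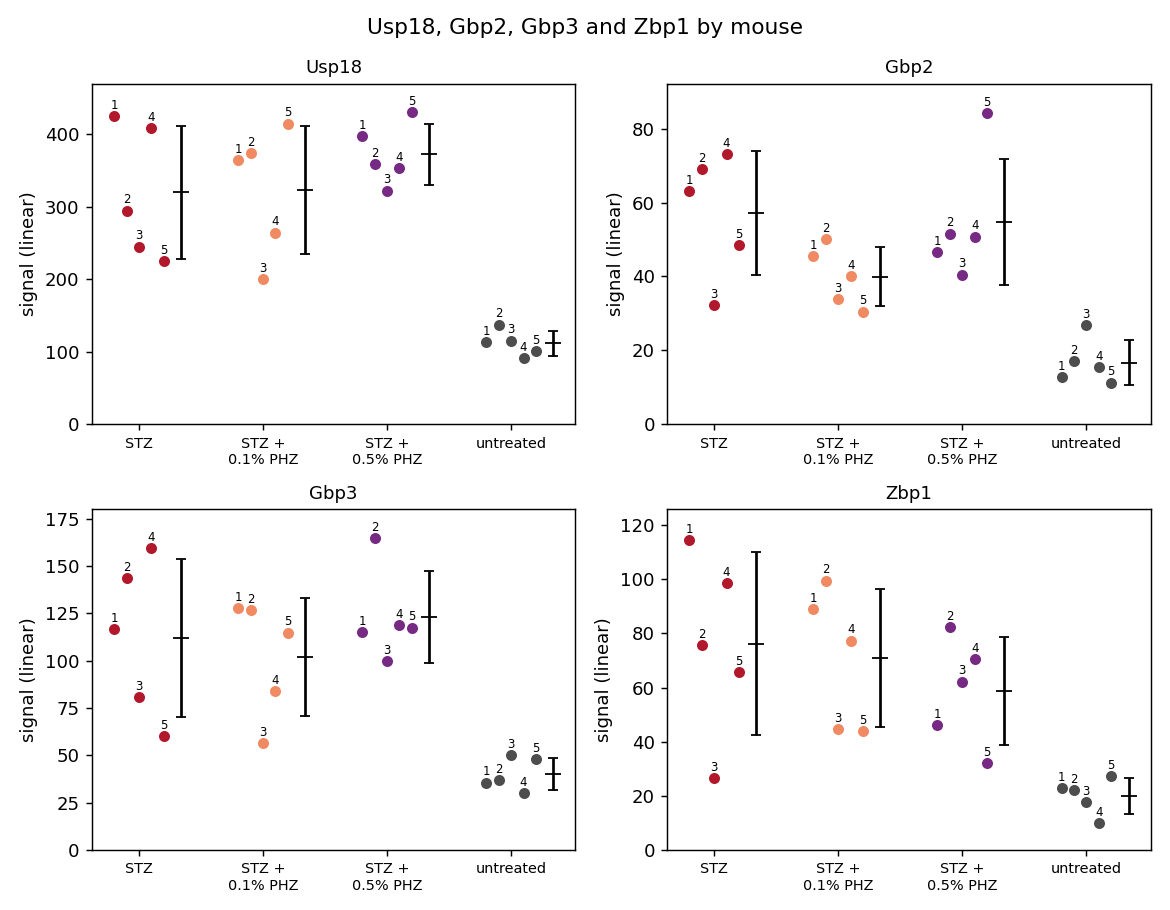
Linear signal (vertical axis) of Usp18, Gbp2, Gbp3 and Zbp1 in STZ, STZ with 0.1% phloridzin (PHZ), STZ with 0.5% phloridzin and untreated liver, with 1 point per mouse labelled by replicate and black bars for the mean and SD of 5 mice. Of the 3 STZ groups only STZ replicate 3 of Zbp1, at 26.4, reaches the untreated range, which ends at 27.4.

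Among the 3 other GTPases none was called. Iigp1, Igtp and Irgm1 belong to the immunity-related GTPases, which act on the same vacuoles. Iigp1 had signals of 3432, 2129.6, 2098, 2748 and 1885 in STZ mice, 3146, 3361, 1838, 2114 and 1666 with 0.1% phloridzin, 1842, 3374, 1842, 3302 and 1563 with 0.5% phloridzin, and 2956, 3279.6, 3293, 3184 and 2893 in untreated mice. The untreated mice lay in a narrow range, while the STZ groups held mice both above and below it. Iigp1 gave log2 differences from untreated liver of −0.38 ± 0.23 in STZ, −0.42 with 0.1% and −0.46 with 0.5% phloridzin (SE, adjusted p = 0.289, 0.22 and 0.194). A second probe set of Iigp1 gave −0.38, −0.55 and −0.45. Irgm1 had signals of 380.0, 269.6, 263, 361 and 229 in STZ mice, 396, 411, 229, 273 and 172 with 0.1% phloridzin, 180.2, 463, 265, 406 and 237 with 0.5% phloridzin, and 414, 404, 365, 287 and 279 in untreated mice. All groups overlapped. Irgm1 gave log2 differences from untreated liver of −0.22 ± 0.24 in STZ, −0.28 with 0.1% and −0.23 with 0.5% phloridzin (SE, adjusted p = 0.594, 0.467 and 0.598). Igtp ranged over 386 to 724 in STZ mice, 209 to 652 with 0.1% phloridzin, 319 to 863 with 0.5% and 375 to 452 in untreated mice, with a log2 difference of 0.19 in STZ against untreated.

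The 11 antiviral effectors, proteins that degrade or trap viral RNA or hold back virus particles, held Zbp1 as the only member called in STZ against untreated. Oas1a, a synthase of the 2-5A messenger that activates RNase L, was next by p. Oas1a had signals of 436, 168, 151, 261 and 162 in STZ mice, 317, 287, 148, 165 and 138 with 0.1% phloridzin, 188, 349, 211, 379 and 167 with 0.5% phloridzin, and 159.8, 106, 129, 114 and 119.9 in untreated mice. STZ replicate 1 and replicate 4 were the highest mice of their group, and STZ replicate 3 fell inside the untreated range. Oas1a gave log2 differences from untreated liver of 0.73 ± 0.28 in STZ, 0.61 with 0.1% and 0.90 with 0.5% phloridzin (SE, adjusted p = 0.0867, 0.135 and 0.0379). In the 0.5% group, where every mouse was above the untreated range, it was called higher (1.86-fold).

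Ifit1 binds viral RNA that lacks the host cap. Ifit1 had signals of 253, 84.7, 76.8, 210.5 and 70.3 in STZ mice, 203, 211, 66.7, 128 and 46.2 with 0.1% phloridzin, 60.8, 147, 69.2, 190.4 and 65.9 with 0.5% phloridzin, and 85.9, 85.6, 98.6, 70.1 and 101 in untreated mice. The 2 highest mice of each STZ group, and 0.1% replicate 4, lay above the untreated range, and the others lay inside or under it. Ifit1 gave log2 differences from untreated liver of 0.41 ± 0.38 in STZ, 0.32 with 0.1% and 0.12 with 0.5% phloridzin (SE, adjusted p = 0.512, 0.605 and 0.88). Oasl2 had signals of 66.4, 31.7, 25.7, 50.6 and 25.5 in STZ mice, 64.8, 52.1, 23.9, 20.3 and 23.4 with 0.1% phloridzin, 25.5, 52.1, 29.7, 51.1 and 32.8 with 0.5% phloridzin, and 35.8, 27.3, 38.2, 25.6 and 20.3 in untreated mice. Oasl2, a relative of Oas1a, showed the same mice on top. Oasl2 gave log2 differences from untreated liver of 0.26 ± 0.23 in STZ, 0.16 with 0.1% and 0.24 with 0.5% phloridzin (SE, adjusted p = 0.495, 0.696 and 0.55).

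The 7 other effectors were not called in any comparison. In STZ against untreated their log2 differences ran from −0.08 for Oasl1 to 0.28 for Ifit3, with 0.12 for Bst2, the tether that holds virus particles at the cell surface, 0.11 for Mx1, 0.09 for Ifit2, 0.04 for Ifi35 and 0.04 for Rsad2, whose product viperin makes a chain-ending nucleotide. Ifit3 ranged over 64.5 to 161 in STZ mice, 58.98 to 144 with 0.1% phloridzin, 53.1 to 151 with 0.5% and 65.2 to 87.3 in untreated mice. Ifit2 ranged over 22.8 to 49.1 in STZ mice, 17.9 to 40.1 with 0.1% phloridzin, 15.1 to 42.3 with 0.5% and 21.04 to 40.3 in untreated mice. Ifit2 and Ifit3 are relatives of Ifit1, and the groups overlapped for both. Oasl1 ranged over 33.2 to 74.05 in STZ mice, 33.98 to 69.9 with 0.1% phloridzin, 24.3 to 84.2 with 0.5% and 43.3 to 57.2 in untreated mice. Ifi35 ranged over 868 to 1189 in STZ mice, 722 to 1137 with 0.1% phloridzin, 820.4 to 1140.0 with 0.5% and 806 to 1255 in untreated mice. Ifi35, which modulates RNA sensing, had 2 other probe sets, which gave 0.30 and −0.11 in STZ against untreated. Mx1, of which many inbred mouse strains carry a defective allele, stayed near background, at 11.5 to 25.7 in STZ mice, 6.12 to 23.03 with 0.1% phloridzin, 5.86 to 25.98 with 0.5% and 13.3 to 19.5 in untreated mice. Bst2 reached 1583 in STZ replicate 1 while the 4 other STZ mice ranged over 551 to 779.5, against 635 to 739 in untreated mice. Rsad2 ran from 144 to 316 in STZ mice, 128 to 440 with 0.1% phloridzin, 121 to 292 with 0.5% and 156 to 222 in untreated mice.

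Of the transcription factors, Irf7, the master regulator of interferon alpha genes, and Stat2, the partner of IRF9 in the type I complex, had log2 differences of opposite sign. Irf7 had signals of 586, 279, 265, 414 and 218 in STZ mice, 674, 601, 223, 301 and 235 with 0.1% phloridzin, 296, 681, 333, 624 and 236 with 0.5% phloridzin, and 231, 259, 189, 172 and 177 in untreated mice. STZ replicates 1 and 4, 0.1% replicates 1 and 2 and 0.5% replicates 2 and 4 had the highest values, and the other 3 mice of each group were inside or closer to the untreated range. Irf7 gave log2 differences from untreated liver of 0.66 ± 0.33 in STZ, 0.80 with 0.1% and 0.92 with 0.5% phloridzin (SE, adjusted p = 0.186, 0.0971 and 0.0673). Stat2 had signals of 169, 81.4, 106, 98.8 and 111 in STZ mice, 177, 160.0, 114, 148 and 94.4 with 0.1% phloridzin, 91.6, 171, 103, 138 and 88.6 with 0.5% phloridzin, and 208, 194, 159, 200.38 and 93.5 in untreated mice. Untreated replicate 5, at 93.5, was far under the 4 other untreated mice, and the groups overlapped. Stat2 gave log2 differences from untreated liver of −0.52 ± 0.21 in STZ, −0.26 with 0.1% and −0.47 with 0.5% phloridzin (SE, adjusted p = 0.113, 0.448 and 0.162). Stat2 was called lower in STZ liver when STZ replicate 1 or untreated replicate 5 was left out (adjusted p = 0.0422 and 0.0268). Irf1 ranged over 166 to 243 in STZ mice, 166 to 329 with 0.1% phloridzin, 159.9 to 276 with 0.5% and 207 to 239 in untreated mice. Irf9 ranged over 117 to 221 in STZ mice, 127 to 200.04 with 0.1% phloridzin, 106 to 178 with 0.5% and 120.0 to 185 in untreated mice. Irf1, the second-wave activator of gamma-type genes, and Irf9, the DNA-binding partner of STAT2, had log2 differences of −0.17 and −0.11 in STZ against untreated and were not called.

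The 3 RNA sensors were not called. Ddx58 (RIG-I) and Ifih1 (MDA5) detect viral RNA and signal through Mavs, and Dhx58 (LGP2) tunes them. Ifih1 had signals of 543, 395, 373, 525 and 328 in STZ mice, 538, 547, 304, 372 and 303 with 0.1% phloridzin, 294, 443, 314, 497 and 284 with 0.5% phloridzin, and 323, 369, 329, 338 and 348 in untreated mice. STZ replicates 1 to 4 exceeded the untreated range, and all groups overlapped. Ifih1 gave log2 differences from untreated liver of 0.30 ± 0.19 in STZ, 0.22 with 0.1% and 0.06 with 0.5% phloridzin (SE, adjusted p = 0.296, 0.46 and 0.871). Dhx58 had signals of 80.7, 46.5, 36.2, 84.98 and 30.5 in STZ mice, 102, 94.5, 32.5, 54.6 and 22.5 with 0.1% phloridzin, 52.3, 103, 33.6, 83.2 and 25.4 with 0.5% phloridzin, and 69.3, 77.7, 73.2, 56.7 and 72.7 in untreated mice. Every STZ group held mice above and mice under the untreated range. Dhx58 gave log2 differences from untreated liver of −0.33 ± 0.31 in STZ, −0.28 with 0.1% and −0.29 with 0.5% phloridzin (SE, adjusted p = 0.528, 0.581 and 0.596). Ddx58 ranged over 131 to 245 in STZ mice, 109 to 290 with 0.1% phloridzin, 84.5 to 310 with 0.5% and 166 to 205 in untreated mice.

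Among the class I antigen processing members, Tapbp, which holds the class I molecule to the peptide transporter, was called in 0.5% phloridzin liver against untreated liver. Tapbp had signals of 1096, 749, 722, 923 and 778 in STZ mice, 1139, 895, 808, 948 and 696 with 0.1% phloridzin, 908, 936, 801, 1042 and 1069 with 0.5% phloridzin, and 749, 708, 675, 789 and 626 in untreated mice. In the 0.5% group all 5 mice were above all untreated mice. Tapbp gave log2 differences from untreated liver of 0.25 ± 0.13 in STZ, 0.32 with 0.1% and 0.41 with 0.5% phloridzin (SE, adjusted p = 0.223, 0.103 and 0.0435). Psmb8 had signals of 566, 328, 328, 529 and 371 in STZ mice, 556, 557, 305, 373 and 305 with 0.1% phloridzin, 327, 476, 440.0, 459 and 382 with 0.5% phloridzin, and 369, 286, 257, 279.9 and 294 in untreated mice. Psmb8 is a catalytic subunit of the immunoproteasome, and STZ replicates 1 and 4 and 0.1% replicates 1 and 2 stood highest. Psmb8 gave log2 differences from untreated liver of 0.46 ± 0.19 in STZ, 0.44 with 0.1% and 0.46 with 0.5% phloridzin (SE, adjusted p = 0.102, 0.114 and 0.106). Psmb9 had signals of 597, 308, 276, 435 and 322 in STZ mice, 462, 484, 224, 297 and 205 with 0.1% phloridzin, 209.5, 441, 287, 445 and 236 with 0.5% phloridzin, and 335, 302, 298, 275 and 348 in untreated mice. Psmb9, another such subunit, overlapped in all groups. Psmb9 gave log2 differences from untreated liver of 0.25 ± 0.25 in STZ, 0.02 with 0.1% and −0.01 with 0.5% phloridzin (SE, adjusted p = 0.543, 0.969 and 0.993). Tap1 ranged over 51.7 to 143 in STZ mice, 56.9 to 142 with 0.1% phloridzin, 67.5 to 134 with 0.5% and 54.4 to 119.6 in untreated mice. Tap2 ranged over 88.9 to 130.1 in STZ mice, 93.4 to 130.1 with 0.1% phloridzin, 97.1 to 131 with 0.5% and 96.5 to 141 in untreated mice. Tap1 and Tap2, the chains of the peptide transporter, overlapped in all groups, with untreated replicate 1 the highest untreated mouse of Tap2. They had log2 differences of 0.05 and −0.03 in STZ against untreated, and neither was called in any comparison.

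The chemokines Cxcl9 and Cxcl10 attract T cells through CXCR3. Cxcl9 had signals of 246, 133, 123, 185 and 101 in STZ mice, 263, 213, 99.99, 124 and 69.1 with 0.1% phloridzin, 98.2, 239, 145, 280.0 and 185 with 0.5% phloridzin, and 103, 116, 118, 81.00 and 67.9 in untreated mice. The highest STZ mice were again replicates 1 and 4, and STZ replicates 2 and 3 stood just above the untreated range. Cxcl9 gave log2 differences from untreated liver of 0.58 ± 0.30 in STZ, 0.47 with 0.1% and 0.81 with 0.5% phloridzin (SE, adjusted p = 0.21, 0.298 and 0.0791). Cxcl10 had signals of 22.4, 30.7, 27.5, 19.5 and 22.1 in STZ mice, 30.9, 20.9, 25.2, 27.1 and 31.05 with 0.1% phloridzin, 10.2, 37.8, 19.1, 36.8 and 20.9 with 0.5% phloridzin, and 17.1, 41.5, 23.2, 23.6 and 15.6 in untreated mice. Cxcl10 was dim in all groups, which overlapped. Cxcl10 gave log2 differences from untreated liver of 0.04 ± 0.18 in STZ, 0.13 with 0.1% and 0.01 with 0.5% phloridzin (SE, adjusted p = 0.921, 0.678 and 0.983).

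Parp9, Parp14 and Dtx3l, ADP-ribosylation and ubiquitin enzymes induced by interferons, were not called. Parp14 had signals of 161, 99.98, 123, 109 and 119 in STZ mice, 154, 134, 108, 113 and 85.7 with 0.1% phloridzin, 91.8, 154, 92.3, 161 and 82.3 with 0.5% phloridzin, and 129, 116, 144, 137 and 126 in untreated mice. Dtx3l had signals of 421, 270.5, 327, 336 and 310.5 in STZ mice, 381, 407, 288, 304 and 270.4 with 0.1% phloridzin, 244, 380.3, 265, 371 and 206 with 0.5% phloridzin, and 379, 335, 352, 309.6 and 355 in untreated mice. The STZ groups held mice on both sides of the untreated range of each. Parp14 gave log2 differences from untreated liver of −0.10 ± 0.17 in STZ, −0.14 with 0.1% and −0.19 with 0.5% phloridzin (SE, adjusted p = 0.752, 0.622 and 0.504). Dtx3l gave log2 differences from untreated liver of −0.06 ± 0.15 in STZ, −0.08 with 0.1% and −0.26 with 0.5% phloridzin (SE, adjusted p = 0.823, 0.77 and 0.29). Parp9 ranged over 395 to 727 in STZ mice, 409 to 711 with 0.1% phloridzin, 320.4 to 667 with 0.5% and 486 to 586 in untreated mice. Parp9, the partner of Dtx3l, had a log2 difference of −0.03 in STZ against untreated.

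**Figure D2:**
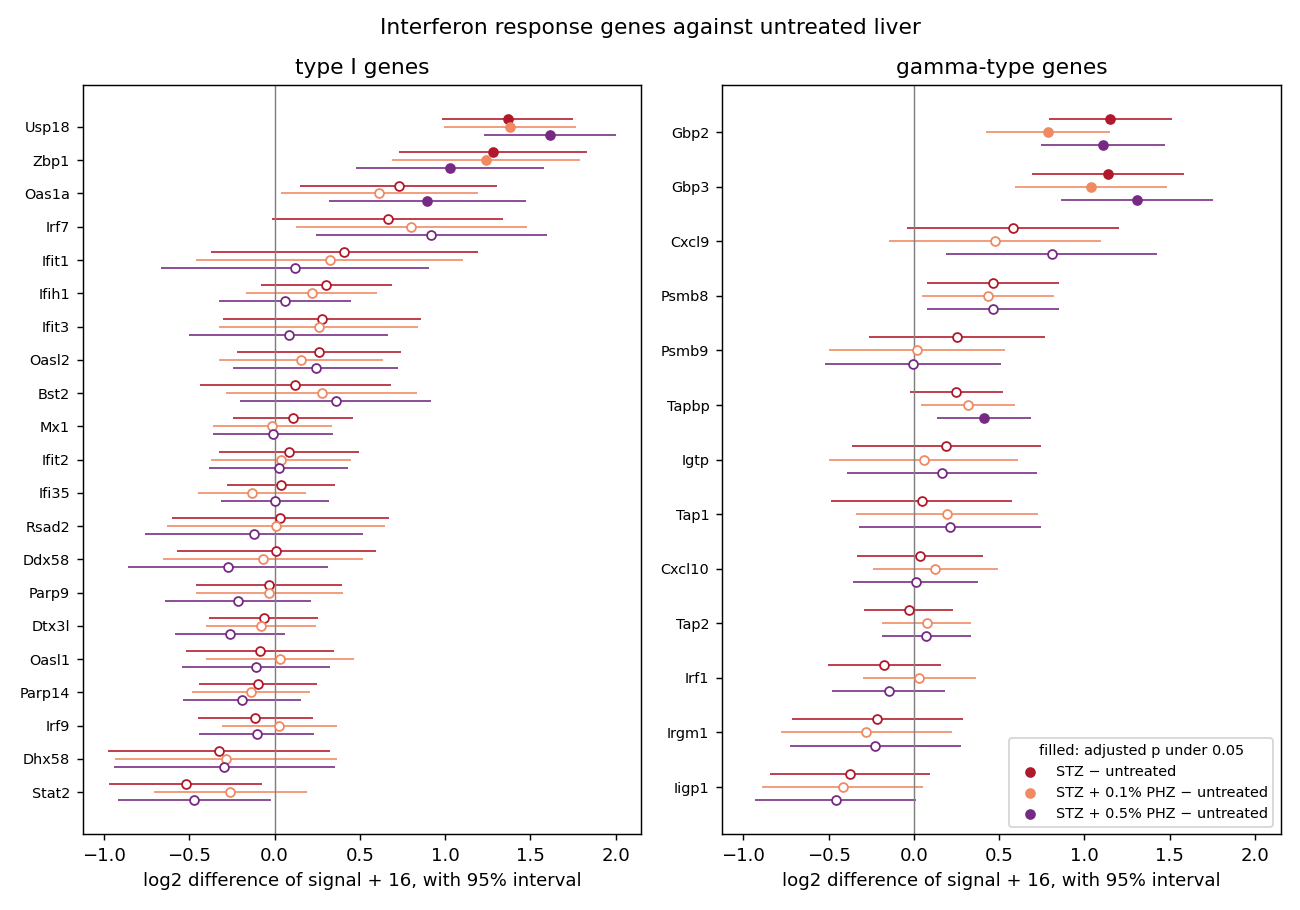
Log2 difference of signal plus 16 (horizontal axis, with 95% interval) of the 21 type I and 13 gamma-type genes in each of the 3 STZ groups against untreated liver, with filled points for an adjusted p under 0.05. Usp18, Zbp1, Gbp2 and Gbp3 are filled in all groups, at 0.79 to 1.61, and Oas1a and Tapbp only with 0.5% phloridzin.

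Both phloridzin groups were also set against untreated liver, with the same 5 untreated mice in each comparison. With STZ and 0.1% phloridzin, 4 of 34 members were called higher and 0 lower, against 16.7% of all genes called in either direction, 7.76% called higher and 8.98% called lower, and the mice did not overlap for 4 members, against 6.02% of all genes. These were Usp18, Gbp2, Gbp3 and Zbp1. With STZ and 0.5% phloridzin, 6 of 34 were called higher and 0 lower, against 12.7% of all genes in either direction, 6.53% called higher and 6.18% called lower, and the mice did not overlap for 6 members, against 5.41% of all genes. These were the same 4 genes with Oas1a and Tapbp. The median log2 difference was 0.03 for type I and 0.13 for gamma-type genes with 0.1% phloridzin, and 0.0020 and 0.16 with 0.5%, against −0.04 and −0.01 for all genes tested. With 1 array left out the type I median ran from −0.05 (without 0.1% replicate 2) to 0.13 (without 0.1% replicate 3) with 0.1% phloridzin and from −0.10 (without 0.5% replicate 4) to 0.13 (without 0.5% replicate 5) with 0.5%. The gamma-type median ran from 0.06 (without 0.1% replicate 2) to 0.30 (without 0.1% replicate 5) and from 0.03 (without 0.5% replicate 2) to 0.29 (without 0.5% replicate 1). The call of Oas1a in the 0.5% group was lost without 0.5% replicate 2, 3 or 4 or untreated replicate 2, 3, 4 or 5 (adjusted p up to 0.0881). That of Tapbp was lost without 0.1% replicate 2, 0.5% replicate 1, 2, 4 or 5 or untreated replicate 1, 2, 3 or 5 (adjusted p up to 0.115).

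Phloridzin in the diet did not bring any member past the threshold against STZ liver. With 0.1% phloridzin 0 of 34 members and 0 of 12947 genes were called (0% of all genes), and 1 member had an unadjusted p under 0.05, against 685 genes (5.29%). That member was Gbp2, with 39.98 ± 8.07 in 0.1% mice and 57.2 ± 16.8 in STZ mice (SD, n = 5 each), a log2 difference of −0.37 with a limma adjusted p of 0.921. With 0.5% phloridzin 0 of 34 members and 0 of 12947 genes were called (0%), and 0 members had an unadjusted p under 0.05, against 622 genes (4.8%). Between 0.5% and 0.1% phloridzin 0 members and 0 genes were called (0%), with 0 members and 840 genes (6.49%) at an unadjusted p under 0.05. Median log2 differences of the members were −0.03, −0.02 and −0.01 in these 3 comparisons, and all 95% intervals of single members lay between −1.07 and 0.95. For the genes called against untreated liver, the 0.5% phloridzin minus STZ difference was 0.25 for Usp18 (95% interval −0.14 to 0.63), −0.04 for Gbp2 (−0.41 to 0.32), 0.17 for Gbp3 (−0.28 to 0.62) and −0.25 for Zbp1 (−0.80 to 0.30). For 0.1% phloridzin minus STZ it was 0.02 for Usp18 (−0.37 to 0.40), −0.10 for Gbp3 (−0.55 to 0.35) and −0.04 for Zbp1 (−0.59 to 0.51). Between the doses Gbp2 was 0.32 higher with 0.5% than with 0.1% phloridzin (−0.04 to 0.68, adjusted p = 0.78). Each interval gives the differences compatible with the values of 5 mice per group, and it is not a limit of detection. It rests on the spread of all 4 groups together.

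Within the STZ groups the members varied together from mouse to mouse. The SD of log2 signal had a median over members of 0.36 in STZ, 0.42 with 0.1% phloridzin and 0.41 with 0.5%, against 0.19 in untreated mice, where that of all genes tested was 0.21, 0.23 and 0.22, against 0.18. The SD was above that of untreated mice for 30, 31 and 30 of 34 members in the 3 groups, and for 61.1%, 64.7% and 61.4% of all genes. The 2 highest mice were replicates 1 and 4 for 27 of 34 members in the STZ group, replicates 1 and 2 for 29 in the 0.1% group and replicates 2 and 4 for 31 in the 0.5% group, against 18.9%, 22.8% and 23.7% of all genes. The 3 pairs were the highest together for 23 of 34 members (67.6%) and for 858 of 12947 genes (6.63%). The highest mouse of the STZ group was above all untreated mice for 29 of 34 members, and its lowest mouse below all of them for 17, with both for 14. In the 0.1% group these counts were 28, 20 and 16, and in the 0.5% group 29, 21 and 18. These counts were not taken over all genes, so they describe the members and do not set them apart from other genes. By class the pairs led 17, 19 and 20 of 21 type I genes and 10, 10 and 11 of 13 gamma-type genes. In untreated mice the most frequent pair led for 5 of 34 members, and 10 different pairs occurred. The pairs were read from these values, so the counts are a description and no test was made. Usp18 was not led by these pairs in the 0.1% and 0.5% groups, Gbp2 not in the STZ and 0.5% groups and Gbp3 not in the STZ group.

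The summed level of Kupffer cell and macrophage markers stood highest in the same mice. The summed signal of 8 such markers was 3201, 2743, 2447, 3456 and 2599 in STZ mice, 3591, 3562, 2243, 2453 and 2554 with 0.1% phloridzin, 3057, 3252, 2666, 3170 and 2586 with 0.5%, and 2814, 2676, 2387, 2399 and 2552 in untreated mice. STZ replicates 1 and 4, 0.1% replicates 1 and 2 and 0.5% replicates 2 and 4 were the highest of their groups, and the groups overlapped. Clec4f, Timd4 and Csf1r among these 8 markers, and Coro1a of 3 general leukocyte markers, were led by the same pairs in all 3 groups, beside 6.63% of all genes. The sum of the 3 leukocyte markers also stood highest in STZ replicates 1 and 4 and 0.1% replicates 1 and 2. With 0.5% phloridzin it was highest in replicate 5 (312.6), then replicate 4 (257.3), with replicate 2 at 239.5. The pairs that led the members led 0 of 5 hepatocyte, 0 of 5 sinusoidal endothelium and 0 of 4 neutrophil markers in all 3 groups. These lists are too short to tell 0 from the 6.63% of all genes. Marco was the Kupffer marker not above background. Neutrophil markers summed to 162, 130.2, 119, 197 and 102 in STZ mice, 271, 215, 129.6, 141 and 152 with 0.1% phloridzin, 115, 144, 156, 155 and 184 with 0.5%, and 175, 202, 148, 210.4 and 238 in untreated mice, and 1 of 4 (Mpo) was not above background. They also stood highest in STZ replicates 1 and 4 and 0.1% replicates 1 and 2, but not in 0.5% replicates 2 and 4. Markers of other immune cells were mostly at or under background, with 5 of 5 measured monocyte and dendritic cell markers, 8 of 9 T and NK cell markers, 3 of 3 B cell markers and 3 of 4 plasmacytoid dendritic cell markers not above 17.1. The part of Kupffer cells and neutrophils in the member values was not tested.

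**Figure D3:**
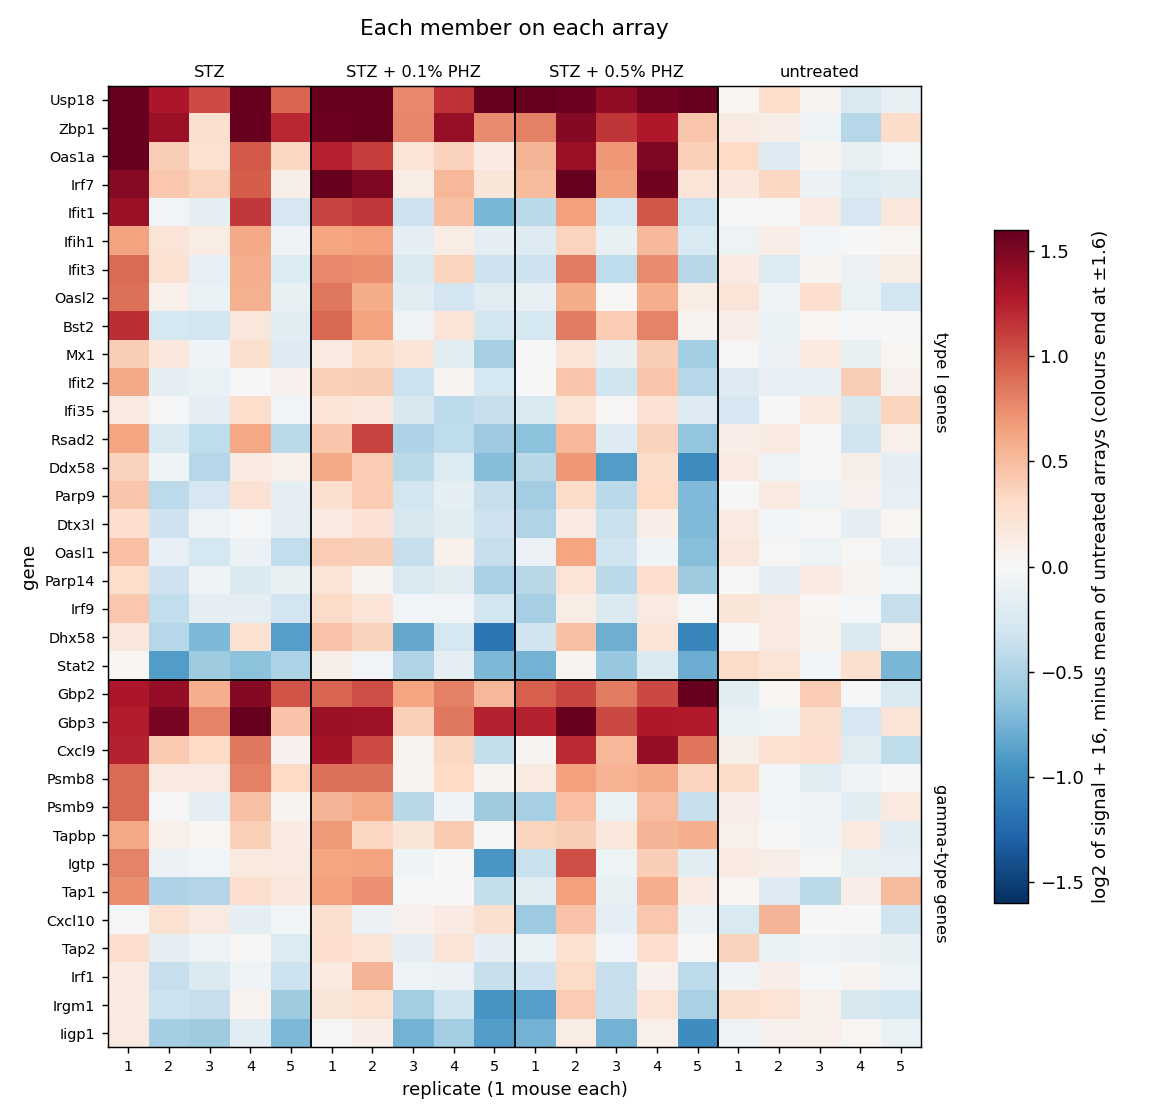
Log2 of signal plus 16 minus the mean of the untreated mice (colour, ending at ±1.6) for the 34 members (rows, type I above the line, gamma-type below) on the 20 arrays (columns, by group and replicate). STZ replicates 1 and 4, 0.1% replicates 1 and 2 and 0.5% replicates 2 and 4 are the reddest columns, and untreated columns are close to white.

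**Figure D4:**
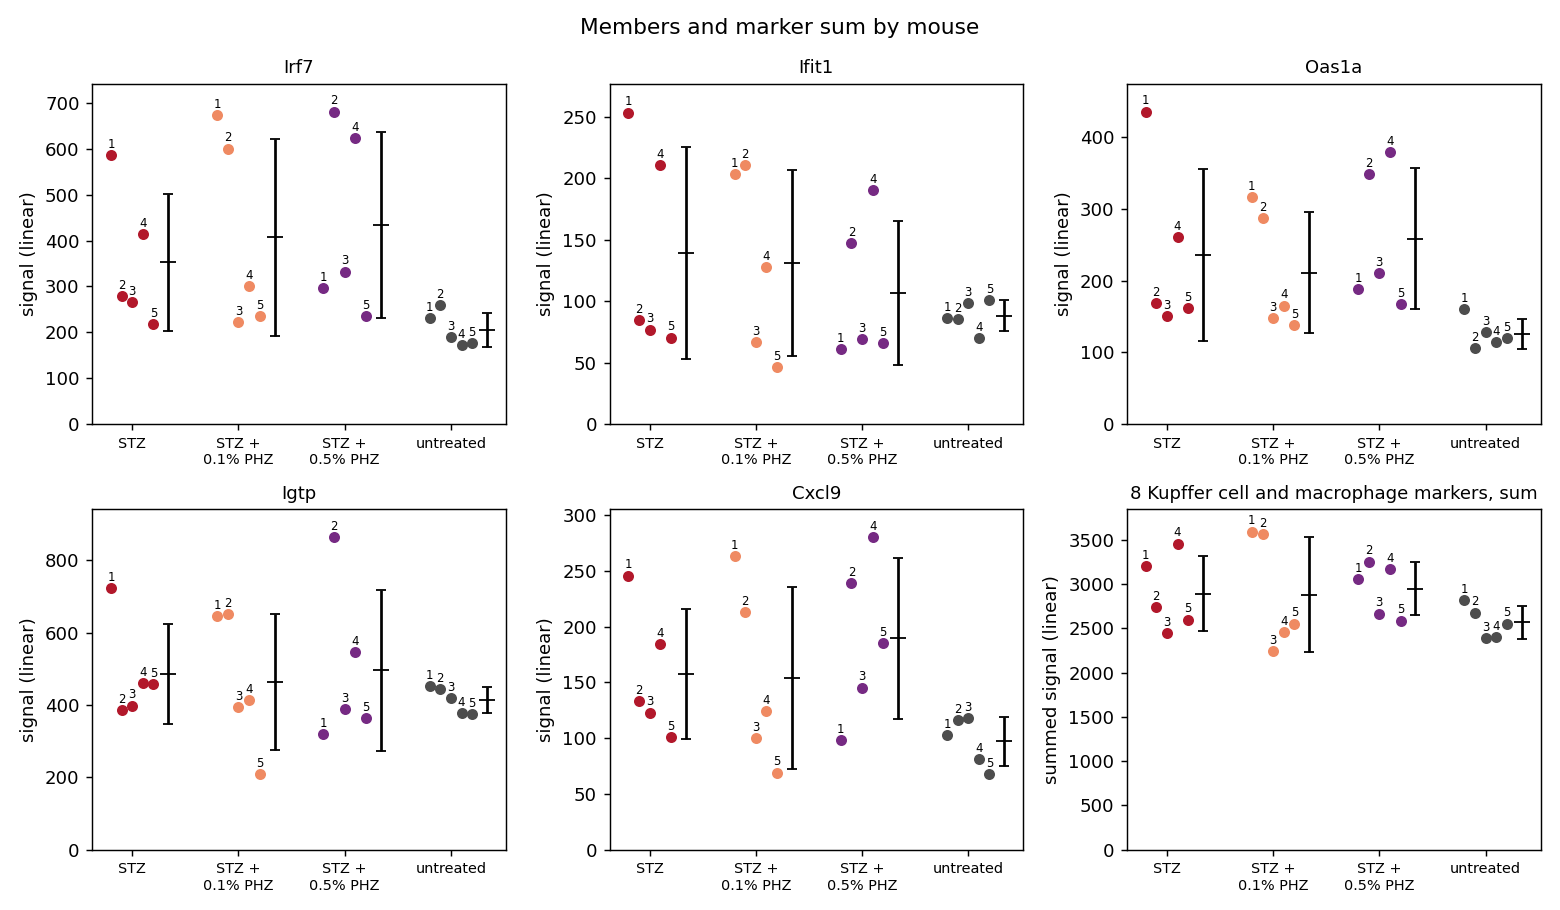
Linear signal (vertical axes) of Irf7, Ifit1, Oas1a, Igtp and Cxcl9 and the summed signal of 8 Kupffer cell and macrophage markers, with 1 point per mouse labelled by replicate and black bars for the mean and SD of 5 mice. The mice labelled 1 and 4 of the STZ group, 1 and 2 of the 0.1% group and 2 and 4 of the 0.5% group carry the 2 highest points of their group in every panel, though Igtp of STZ replicate 4, at 461, is close to the 457 of replicate 5.

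Other genes of the pathway came from lists of ligands, receptors, regulators and further interferon-induced genes. Of the interferon genes, Ifnb1, Ifna4 and Ifng averaged 5.81, 4.22 and 2.10 over the 20 arrays, under the background limit and the filter, and Ifna2 averaged 31.0. Of the ligand list only Ifna2 and the cytokines Il15 and Il18 were tested, and 0 of these 3 were called. Over all genes 6.9% were called higher and 6.89% lower in STZ against untreated, 13.8% in either direction, and the counts of these lists stand beside those shares. Of 13 receptors, kinases and factors, Jak1 and Nlrc5, the activator of class I genes, were called higher in STZ against untreated (0.41 and 0.61), and 0 lower. Neither Ifnar1 nor Ifngr1 was called. Of 7 negative regulators, Ptpn11, a phosphatase, and Trim24, a nuclear receptor cofactor, were called higher and 0 lower. Trim24 had signals of 193, 249.9, 260.0, 311 and 383 in STZ mice, 124, 167, 332, 266 and 322 with 0.1% phloridzin, 288, 126, 209, 165 and 308 with 0.5% phloridzin, and 45.9, 46.5, 64.7, 72.03 and 54.4 in untreated mice. Trim24 averaged 279 ± 71.3 in STZ mice and 56.7 ± 11.5 in untreated mice (SD, n = 5 each), 4.01-fold higher (adjusted p = 2.87e-05), with no overlap. With all its probe sets averaged, the log2 difference of Trim24 was 0.78, against 2.00 for the probe set used. The lists had median log2 differences of 0.0014 for receptors, kinases and factors, 0.34 for negative regulators and −0.02 for nucleic acid sensing, against −0.05 for all genes. Of 11 nucleic acid sensing genes, the adaptor Mavs was called lower (−0.44, adjusted p = 0.0469), a call that 19 of 30 alternatives ended.

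Of 26 other interferon-induced genes, 5 were called higher and 0 lower in STZ against untreated, beside 6.9% of all genes called higher and 6.89% lower, with a median log2 difference of 0.14. Ly6e had signals of 8343, 5616, 5968, 7409 and 5936 in STZ mice, 7655, 9368, 7122, 8619 and 6534 with 0.1% phloridzin, 6433, 7698, 6865, 7652 and 6727 with 0.5% phloridzin, and 2729.7, 2368, 2224, 2675 and 2081 in untreated mice. Ly6e, a surface protein that affects virus entry, had no mouse given STZ inside the untreated range. It averaged 6654 ± 1170 in STZ mice and 2415 ± 282 in untreated mice (2.73-fold, adjusted p = 3.46e-07). Psmb10, the remaining catalytic immunoproteasome subunit, averaged 411 ± 49.2 in STZ mice and 269 ± 22.9 in untreated mice (1.49-fold, adjusted p = 0.000635). The proteasome activator Psme1 and the nucleotide hydrolase Samhd1 were at 0.31 and 0.36 on the log2 scale, and Ifi27 at 0.72. The mice leading the members also led 14 of these 26 genes in all 3 groups, beside 6.63% of all genes. They led 0 of 13 receptors, kinases and factors and 0 of 7 negative regulators, lists too short to tell 0 from that share. In the 0.1% and 0.5% groups against untreated, 5 of 26 were called higher and 0 lower, beside 7.76% and 6.53% of all genes called higher: Ly6e, Psmb10, Psme1, Ifitm2 and Ifi27. Over all genes 8.98% were called lower with 0.1% phloridzin and 6.18% with 0.5%. Beside these shares, receptors, kinases and factors had 4 higher (Stat3, Nlrc5, Jak1, Ifngr2) and 1 lower (Jak2) with 0.1% phloridzin, and 1 higher (Nlrc5) with 0.5%. Negative regulators had Ptpn11 and Trim24 higher with 0.1% and Trim24 with 0.5%, and Mavs and Ticam1 were lower with both. In the comparisons of phloridzin with STZ, 0 genes of these lists were called. Trim24, Ly6e and Psmb10 were called in STZ against untreated under all 30 alternatives, Jak1 and Psme1 under 29, Nlrc5 under 25, Samhd1 under 23, Ptpn11 under 21 and Ifi27 under 14. With all probe sets of a gene averaged, the adjusted p was 0.277 for Jak1, 0.423 for Ptpn11 and 0.350 for Samhd1 in STZ against untreated, and 0.297 for Stat3, 0.672 for Ifngr2, 0.132 for Jak1 and 0.231 for Ptpn11 in the 0.1% group against untreated.

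Genes of class I presentation were called in both directions. Of 8 class I genes tested in STZ against untreated, with a median log2 difference of −0.19, 3 were called higher, beside 6.9% of all genes: the heavy chains H2-K1 (2899 ± 539 in STZ mice and 1884 ± 123 in untreated mice, log2 0.60) and H2-D1 (3847 ± 600 in STZ mice and 2923 ± 214 in untreated mice, log2 0.38), and the trimming peptidase Erap1 (0.72). The chaperones Calr (−0.56) and Canx (−0.33), which also fold many other proteins, were called lower, beside 6.89% of all genes. The heavy chain H2-Q10 was not called in any of the 3 groups against untreated, and its means were lower there. It averaged 3172 ± 431 in STZ, 3562 ± 613 with 0.1% and 3463 ± 361 with 0.5% phloridzin, against 3984 ± 200 in untreated mice (SD, n = 5 each). B2m, the class I light chain, was not called in STZ against untreated (−0.06). The constitutive proteasome subunits Psmb5, Psmb6 and Psmb7, the counterparts of the immunoproteasome subunits, had log2 differences of 0.18, 0.16 and −0.01 in STZ and were not called there, while with 0.1% phloridzin Psmb6 was called higher (0.24). With 0.1% phloridzin the same 3 class I genes were higher and Calr and Canx lower, beside 7.76% of all genes called higher and 8.98% lower. With 0.5% the same 3 were higher and Calr lower, beside 6.53% and 6.18% of all genes. H2-K1 was called in STZ against untreated under all 30 alternatives, Erap1 and Calr under 29, H2-D1 under 26 and Canx under 24. With all probe sets of a gene averaged, the adjusted p in STZ against untreated was 0.0924 for Erap1, 0.0706 for Calr and 0.0990 for Canx, while H2-K1 and H2-D1 kept their calls at log2 differences of 0.31 and 0.24. In the 0.1% group against untreated Erap1 was then at 0.06 (adjusted p = 0.798), and Calr and Canx lost their calls (0.186 and 0.0994). Of the 8 Kupffer cell and macrophage markers 1 was called in STZ against untreated, Cd5l (0.52, higher), beside 6.9% of all genes called higher. Of 5 sinusoidal endothelium markers 1 was called higher, Lyve1 (1.19), beside the same share. The endothelium list's median log2 difference was −0.16, with Stab2 at −0.24, Clec4g at −0.20, Kdr at −0.16 and Pecam1 at 0.01.

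**Figure D5:**
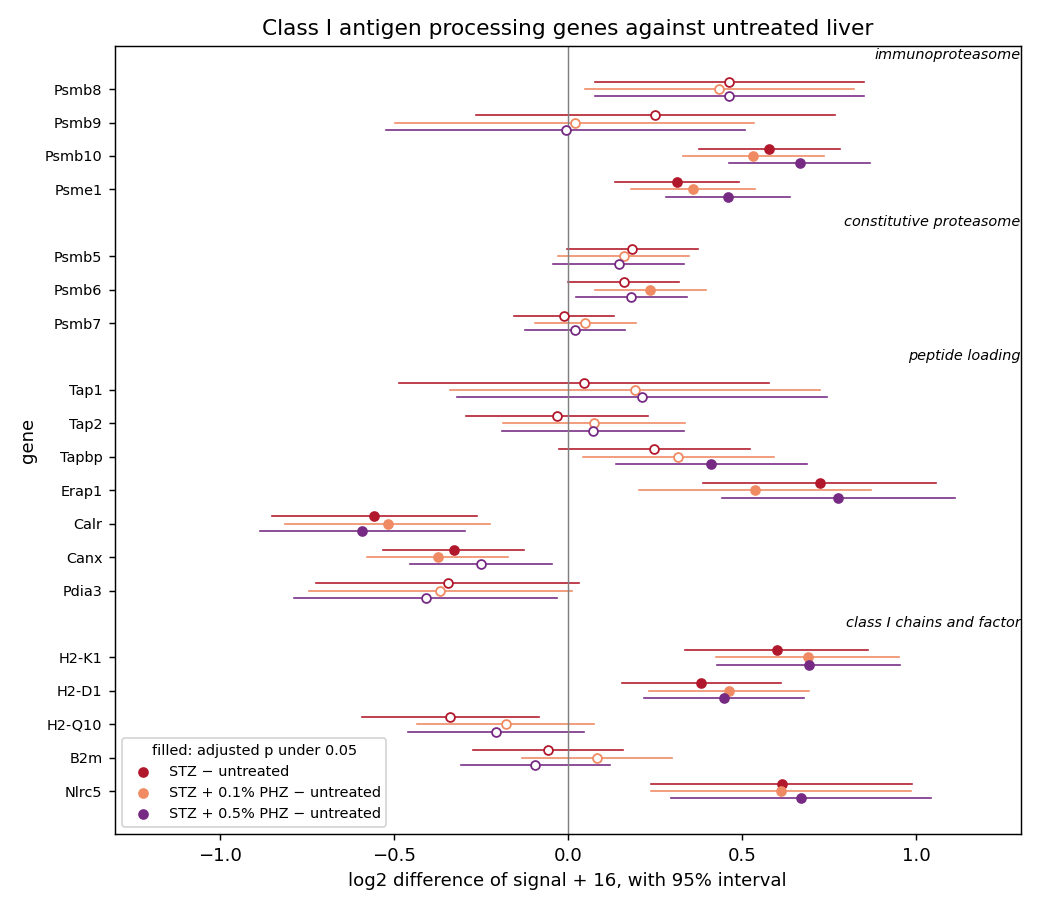
Log2 difference of signal plus 16 against untreated liver (horizontal axis, with 95% interval) of genes of the immunoproteasome, its constitutive counterpart, peptide loading and the class I molecule, for STZ, STZ with 0.1% phloridzin and STZ with 0.5% phloridzin, with filled points for an adjusted p under 0.05. Psmb10, H2-K1 and Erap1 lie right of zero in all 3 groups, Calr left, and B2m and Psmb7 around zero.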

How the data were processed

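Liver RNA of 20 mice was labelled by 1 round of cDNA synthesis and in vitro transcription, per the labels' protocols, and each array gave 1 signal per probe set. The deposited values are linear intensities that the authors scaled to a trimmed mean of 100 on every array, as the deposited values themselves show, and no source used here names the software. The array holds 45101 probe sets, of which 34945 were annotated to 1 gene, 932 to several and 9160 to none, and 64 are controls. Of the Entrez IDs, 34741 were found in the RefSeq gene table and 0 symbols changed. For each gene the probe set with the highest mean over 20 arrays was used (14 members had more than 1), and 12947 genes were kept, with that mean no lower than a signal of 8.48, which is percentile 40 over the probe sets.

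The log2 of signal plus 16 was fitted with limma 3.58.1 (R 4.3.3) with 4 group means over all 20 arrays, with two-sided contrasts and Benjamini-Hochberg adjustment, and calls at an adjusted p under 0.05. The 3 comparisons with untreated mice share those mice, and the 2 comparisons of phloridzin with STZ share the STZ mice. The fit was tested on simulated data of 12947 genes for STZ against untreated, where 54.6% of 1.5-fold and 87.8% of 2-fold changes were recovered and 6.04% of calls were false. The simulated noise was normal, independent between genes and of equal spread in all groups, and few genes were changed. The members varied together and varied more in STZ mice, so these rates need not hold for them. Alternatives were other normalization, filters and pseudocounts, the mean of all probe sets, array weights, a trended prior, a replicate block, only the compared groups, and leaving out each array. The labels give separate mice, and 5 arrays per group limit the precision.

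The members, the 7 pathway lists, the 9 marker lists and the motifs were chosen with earlier results of these data known. Values for every array were given for called members and for up to 2 more per role by smallest p in STZ against untreated, and up to 4 called genes of each pathway list were named by smallest p. Ifi27, Ifngr2 and Canx, the fifth of their lists, were named after their values were seen. Promoter sequences are RefSeq's.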

Additional observations from a re-analysis of the deposited data

Results flagged for a closer look

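Among 136 groups of 5 arrays (34 members in 4 groups), 3 held a mouse far from the others by Dixon's ratio of the gap to the whole range, on log2 of signal plus 16, with a critical value of 0.71 that chance passes in about 1 in 20 groups. Ifit2 of STZ replicate 1 had a ratio of 0.723, with a signal of 49.1 against 28.8 in the next mouse. Igtp of STZ replicate 1 had a ratio of 0.719, with a signal of 724 against 461 in the next mouse. Tap2 of untreated replicate 1 had a ratio of 0.891, with a signal of 141 against 101 in the next mouse. None of the 3 genes was called in any comparison.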

How the results depend on the processing

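Usp18, Gbp2, Gbp3 and Zbp1 were called against untreated liver in all 3 STZ groups under each of the 30 alternatives. With 1 array left out in turn, 4 to 5 members were called in STZ, 4 in the 0.1% group and 4 to 7 in the 0.5% group. The count in STZ was 5 with array weights, where Stat2 was called lower (−0.63, adjusted p = 0.0168), and 4 under the other planned settings. The count in the 0.5% group was 4 without the filter on low signal and with a pseudocount of 1, 5 with quantile normalization and with the mean of probe sets, 7 with array weights and 9 when only the compared groups were fitted, which added Cxcl9, Irf7 and Psmb8. The call of Oas1a was lost without the filter (adjusted p = 0.0511) and with a pseudocount of 1 (0.0518), and that of Tapbp with these (0.0578 and 0.0544), with the mean of probe sets (0.111) and with quantile normalization (0.0592). The cause was not tested. None of the members followed singly (10 in STZ, 4 in the 0.1% group and 6 in the 0.5% group against untreated) reversed its direction. With 1 array left out the median of the type I genes ran from −0.04 to 0.15, −0.05 to 0.13 and −0.10 to 0.13 in these groups. All comparisons of phloridzin with STZ and of 0.5% with 0.1% gave 0 calls under every alternative.

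The labels give different mice under 1 replicate number, and the numbers were not taken as pairs. Over 30 pairs of same-numbered arrays the correlation of deviations ran from −0.41 to 0.50, and 13 were over 0.1 (median 0.076), against 31 of 120 pairs of unlike number (median −0.012). With a replicate block 4, 5 and 7 members were called in STZ, 0.1% and 0.5% phloridzin against untreated, adding Irf7 with phloridzin, and 0 between STZ groups. Signals near the background limit of 17.1, as for Mx1, Cxcl10 and untreated Gbp2, limit what could be seen.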
